A study of Mus musculus with 9 samples.

Results

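The Sprouty and Spred genes Spry1, Spry2, Spry4, Spred1, Spred2 and Spred3 were followed by symbol through a table of 10340 genes, and all 6 were present in it. RNA came from NIH 3T3 cells, an immortalised mouse fibroblast line grown as monolayers on plastic. Every culture carried a lentivirus for a short hairpin RNA and had been selected for it, the controls included. The 3 shControl cultures carried a hairpin against red fluorescent protein, which has no target in these cells. The 3 shCNKSR2_1 and 3 shCNKSR2_2 cultures each carried 1 of 2 hairpins against Cnksr2, the gene of a scaffold protein in Ras signalling. Cultures of a group were separate ones of the same cell line, so p-values describe the spread between cultures and not between animals. Cnksr2 itself was not analysed here. The knockdown is therefore unchecked, and each comparison is between hairpins, not between levels of Cnksr2.

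Sprouty proteins are brakes on signalling from receptor tyrosine kinases through Ras to the kinase ERK, and Sprouty genes are themselves switched on by that pathway, which closes a negative feedback loop. Spred proteins share the cysteine-rich carboxy-terminal Sprouty domain and carry an EVH1 domain at the other end, through which Spred1 and Spred2 bring the Ras inactivator neurofibromin to the membrane. In fibroblasts the loop is best known for limiting the response to fibroblast and platelet-derived growth factors.

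The sequence just around the annotated start site is shown for 3 of the genes, chosen because their transcripts differed in the tests they passed. Any link between these sequences and the transcript changes was not tested. Spry2 rose with both hairpins, Spred2 rose by a smaller step with 1 hairpin, and Spry1 did not pass the test with either. Windows of 300 bases, 250 before the start site and 50 from it on, were taken from RefSeq on build GRCm38.p6, a later build than that used for the expression values. They are written 5′ to 3′ on the strand of the gene. Capitals mark matches to an extended ETS core (CCGGAA) or to the core of the cyclic AMP element (TGACG).
Spry2 promoter: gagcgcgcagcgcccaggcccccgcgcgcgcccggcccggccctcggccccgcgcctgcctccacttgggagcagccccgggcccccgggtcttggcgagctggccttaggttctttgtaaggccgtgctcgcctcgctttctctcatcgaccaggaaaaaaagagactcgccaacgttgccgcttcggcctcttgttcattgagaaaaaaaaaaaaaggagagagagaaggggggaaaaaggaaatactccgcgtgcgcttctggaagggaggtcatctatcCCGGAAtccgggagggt
Spred2 promoter: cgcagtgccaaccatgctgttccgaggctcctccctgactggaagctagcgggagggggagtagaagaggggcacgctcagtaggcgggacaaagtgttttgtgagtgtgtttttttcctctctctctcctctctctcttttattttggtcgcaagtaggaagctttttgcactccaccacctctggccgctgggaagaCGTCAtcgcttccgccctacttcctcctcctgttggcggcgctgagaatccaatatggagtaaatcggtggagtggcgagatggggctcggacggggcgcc
Spry1 promoter: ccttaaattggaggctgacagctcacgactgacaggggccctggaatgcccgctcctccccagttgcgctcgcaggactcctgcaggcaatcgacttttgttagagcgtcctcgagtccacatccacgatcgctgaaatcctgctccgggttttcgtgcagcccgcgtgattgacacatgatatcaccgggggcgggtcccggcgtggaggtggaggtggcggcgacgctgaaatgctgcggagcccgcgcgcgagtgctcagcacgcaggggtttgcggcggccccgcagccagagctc
These windows lie at chr14:105896770-105897069 on the minus strand for Spry2, at chr11:19924192-19924491 on the plus strand for Spred2 and at chr3:37639697-37639996 on the plus strand for Spry1. The letters searched, on both strands, were also those of the AP-1 site (TGANTCA), the CArG box and the GC box (GGGCGG), and no match of one motif overlapped another. Spry2 held a single CCGGAA, starting at base 34 counted from 1 at the start site, and none of the other 4 motifs. The shorter GGAA was not searched, and it also occurs elsewhere in this window and in those of Spred2 and Spry1. CCGGAA stood in 14.9% of 32851 mouse windows of the same length. Spred2 held 1 cyclic AMP element core, which reads as its reverse complement on the printed strand, and 1 GC box. Such element cores were found in 20.8% of windows and GC boxes in 35.7%. Spry1 held 1 GC box alone, Spred1 and Spred3 held 3 GC boxes each and none of the other motifs, and a window for Spry4 was not used here. AP-1 sites occurred in 7.81% of windows and CArG boxes in 1.63%, and in none of these 5.

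Values are FPKM, fragment numbers scaled by transcript length and by the size of the library, which allow levels to be compared between genes. Each gene in the table exceeded 1 FPKM in every library. The 9 libraries summed to between 437208 and 450776 FPKM, and the number of fragments behind a value is unknown. Replicate 1 of shCNKSR2_1 stood apart from its own group. On the first principal component (67.5% of the variance) it lay at -1.71, with its fellow replicates at 5.98 and 4.63, controls between -16.9 and -16.1 and shCNKSR2_2 between 13.4 and 13.8. Fibroblast markers were all present, 10 of 10. Their sums were 6919 to 7164 FPKM in controls, 7571 to 7764 with shCNKSR2_1 and 7004 to 7560 with shCNKSR2_2. S100a4 alone made up most of each sum, with means of 4552, 4709 and 4565 FPKM in the same order. The sums therefore say little about the other markers. Members of the list went both ways, 3 rising and 3 falling with shCNKSR2_1 and 3 rising and 6 falling with shCNKSR2_2. The median log2 changes of the list were 0.03 and -0.54. The matrix proteoglycan gene Dcn fell by 2.45 and 2.90. The collagen gene Col1a1 fell by 0.92 with shCNKSR2_2 and was not called with shCNKSR2_1 (-0.03). The markers that rose were the same with both hairpins, shCNKSR2_1 first: Thy1 by 0.93 and 0.28, Fn1 by 0.59 and 0.26 and Vim by 0.34 and 0.52. The part of these shifts in the results was not tested. None of 6 epithelial, 6 endothelial and 5 skeletal muscle markers was in the table, and of 6 blood cell markers only Cd68 was, at 1.90 to 3.58 FPKM. In bulk RNA, fewer cells that express a gene and less of its RNA per cell cannot be told apart.

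In control cells the family had a clear order of levels. Spry2 was the most abundant at 20.2 ± 0.327 FPKM (mean ± SD, n = 3 here and throughout), followed by Spred1 at 16.5 ± 0.856 and Spred2 at 13.8 ± 0.463 FPKM. Spred3 averaged 4.36 ± 0.241, Spry4 2.23 ± 0.0936 and Spry1 1.35 ± 0.158 FPKM. No neighbours in this order overlapped in their 3 control values. Spry2 ranked 3656th of the 10340 genes by control mean and Spry1 10278th, just above the 1 FPKM that all genes of the table exceed.

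The first question was what each hairpin did to the Sprouty genes, whose products act at and below the receptors. Spry2, the broadly expressed member that binds the adaptor Grb2 and the ubiquitin ligase c-Cbl, stood at 20.2, 20.5 and 19.8 FPKM in the 3 controls. It reached 25.2, 34.5 and 32.7 FPKM with shCNKSR2_1, and 39.4, 37.6 and 38.4 FPKM with shCNKSR2_2. All 6 hairpin libraries were above all controls, and the lowest of them was replicate 1 of shCNKSR2_1. On the log2(FPKM + 1) scale, used for every fold change here, Spry2 rose by 0.57 ± 0.09 (SE) with shCNKSR2_1 and by 0.90 ± 0.09 with shCNKSR2_2, at limma adjusted p = 6.84e-04 and 1.64e-05. The ratios of mean FPKM were 1.53 and 1.91.

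Spry4, an inhibitor that is often among the most ERK-responsive of the family, was scarce in controls and rose with both hairpins. Controls gave 2.23, 2.32 and 2.13 FPKM, shCNKSR2_1 gave 3.46, 4.53 and 4.25 FPKM, and shCNKSR2_2 gave 4.28, 4.15 and 4.08 FPKM. Here too no hairpin library reached down to the controls, and the lowest hairpin value was again that of shCNKSR2_1 replicate 1. The log2 changes were 0.65 ± 0.07 and 0.68 ± 0.07 (SE, limma adjusted p = 6.31e-05 and 2.32e-05), for ratios of mean FPKM of 1.83 and 1.87. Since the added 1 FPKM weighs more on a scarce gene, the log2 change of Spry4 understates its ratio more than that of Spry2 does. With a pseudocount of 0.01 FPKM the changes of Spry4 were 0.86 and 0.90.

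Spry1, the member best known from kidney and ureter development, did not pass the test with either hairpin. Control libraries gave 1.17, 1.47 and 1.42 FPKM, those of shCNKSR2_1 gave 1.90, 1.41 and 1.77, and those of shCNKSR2_2 gave 1.17, 1.42 and 1.38 FPKM. The 3 groups overlapped, and the highest value belonged to shCNKSR2_1 replicate 1. The log2 difference from control was 0.19 (95% interval 0.02 to 0.37, limma adjusted p = 0.0832) with shCNKSR2_1 and -0.02 (-0.19 to 0.16, adjusted p = 0.879) with shCNKSR2_2. The rises of Spry2 and Spry4 with shCNKSR2_2 were larger than the upper end of that interval. The added 1 FPKM weighs most on Spry1, however, the scarcest member, so its differences and intervals are compressed. With a pseudocount of 0.01 FPKM they were 0.32 with shCNKSR2_1 and -0.03 with shCNKSR2_2 (limma adjusted p = 0.0874 and 0.877). Without shCNKSR2_1 replicate 2, its lowest library, the difference with that hairpin was 0.27 and passed (adjusted p = 0.0226), as it did under quantile normalization (0.23, adjusted p = 0.0340).

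**Figure D1:**
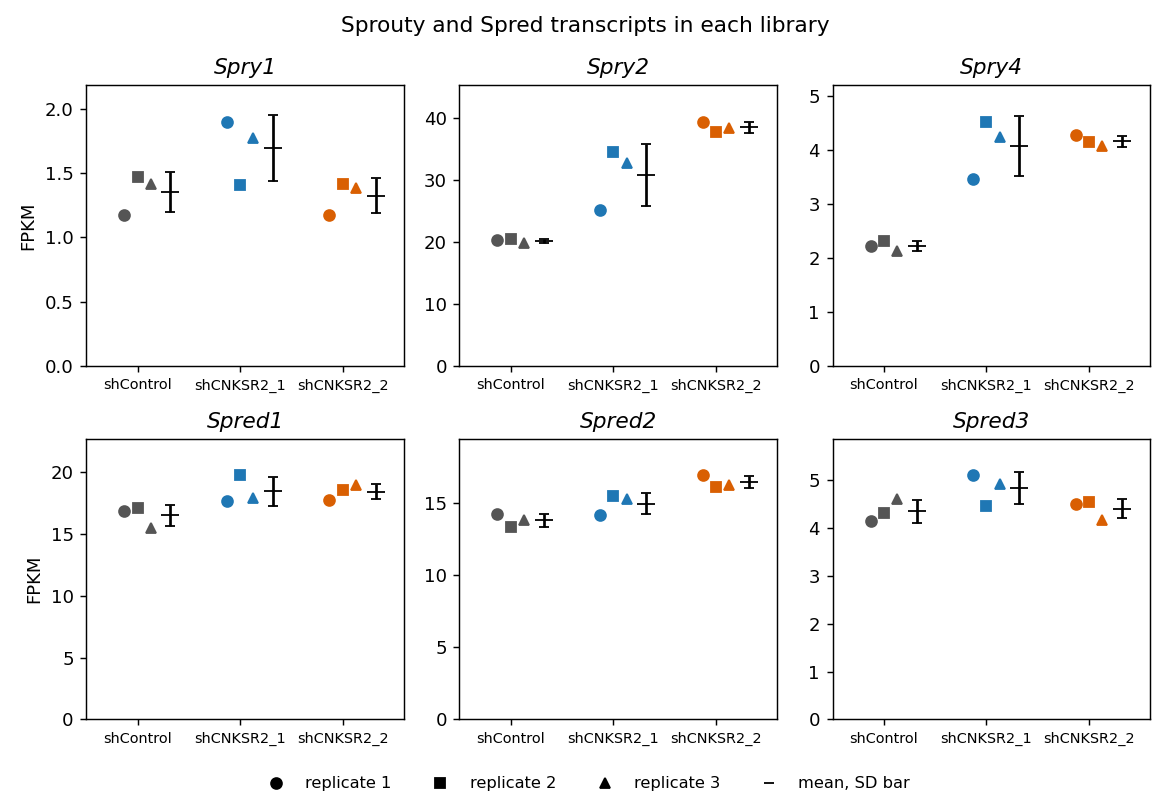
FPKM of each gene (vertical axes from 0, scaled per gene) in the 3 groups, with symbols for replicates and a bar for the mean and SD. Spry2 and Spry4 lie above the controls in all 6 hairpin libraries, while the values of Spry1 and Spred3 overlap between groups.

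Among the Spred genes, Spred1 passed the test with both hairpins, Spred2 with shCNKSR2_2 and Spred3 with neither. The changes that passed were smaller than those of Spry2 and Spry4. Spred1, mutated in the human Legius syndrome, had control values of 16.9, 17.1 and 15.5 FPKM. With shCNKSR2_1 it stood at 17.7, 19.8 and 17.9 FPKM and with shCNKSR2_2 at 17.8, 18.6 and 19.0 FPKM. All hairpin libraries lay above all controls, the nearest pair being 17.1 and 17.7 FPKM. The log2 changes were 0.15 ± 0.05 with each hairpin (SE, limma adjusted p = 0.0418 and 0.0305). These calls were close to the threshold of 0.05. The first was lost without any 1 control library, without shCNKSR2_1 replicate 2 or 3 and without shCNKSR2_2 replicate 2 or 3 (adjusted p from 0.0508 to 0.145). The second was lost without shControl replicate 3 (adjusted p = 0.111) and without shCNKSR2_2 replicate 2 (0.0797) or 3 (0.106).

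Spred2, a broadly expressed relative with the same reach to Ras, gave 14.2, 13.3 and 13.8 FPKM in controls and 14.1, 15.5 and 15.2 FPKM with shCNKSR2_1. It gave 16.9, 16.1 and 16.3 FPKM with shCNKSR2_2, above every library of the other groups. Replicate 1 of shCNKSR2_1 was within the control range. Spred2 rose by 0.24 ± 0.04 with shCNKSR2_2 (SE, limma adjusted p = 0.00103). With shCNKSR2_1 the difference was 0.11 (95% interval 0.01 to 0.20, adjusted p = 0.0754), and without replicate 1 of that hairpin it was 0.15 and passed (adjusted p = 0.0165). It also passed under median-ratio rescaling (0.13, adjusted p = 0.0340), quantile normalization (0.13, adjusted p = 0.0393) and removal of a trend on GC content (0.13, adjusted p = 0.0223).

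Spred3, the relative in which the binding of the receptor c-Kit seen in Spred1 and Spred2 is lost, did not pass with either hairpin. Control libraries gave 4.14, 4.31 and 4.62 FPKM, those of shCNKSR2_1 gave 5.11, 4.47 and 4.93, and those of shCNKSR2_2 gave 4.50, 4.55 and 4.18 FPKM. The groups overlapped. The log2 differences were 0.12 (95% interval 0.003 to 0.24, limma adjusted p = 0.104) and 0.01 (-0.11 to 0.13, adjusted p = 0.844). The first passed without shCNKSR2_1 replicate 2 (0.17, adjusted p = 0.0445), under quantile normalization (0.18, adjusted p = 0.0221) and with the GC trend removed (0.14, adjusted p = 0.0363).

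Counted together by limma, 3 of the 6 genes rose with shCNKSR2_1 and 4 with shCNKSR2_2, and 0 fell with either. There were 6 and 4 higher and 0 lower at an unadjusted p under 0.05, for which the share of all genes was not taken. Many other genes passed that looser threshold. With shCNKSR2_1 Spred3 passed it while ranking only 4442nd of 10340 genes by p in the same test. With shCNKSR2_2 Spred1 passed it while ranking only 4490th. The counts at that threshold are therefore not read as a result about the family. Of all genes tested 32.8% were called with shCNKSR2_1, 13.6% higher and 19.3% lower. With shCNKSR2_2 it was 48.2%, 20.0% higher and 28.2% lower. The balance of all genes depended on scaling. Median-ratio rescaling gave 1794 higher and 1564 lower genes for the first hairpin in place of 1405 and 1991, and 2460 and 2424 for the second in place of 2066 and 2918. The median log2 change over the 6 genes was 0.17 and 0.19, against -0.02 and -0.03 over all genes. Spry2, Spry4 and Spred1 were higher with both hairpins, as were 10.6% of all genes. Values of 3 genes with shCNKSR2_1 and 4 with shCNKSR2_2 did not overlap those of controls, against 44.2% and 59.6% of all genes. By rank of log2 change from the top among 10340 genes, Spry4 was 85th and Spry2 121st with shCNKSR2_1, and Spry2 58th and Spry4 121st with shCNKSR2_2. Spred1 ranked 1254th and 1766th and Spred2 1854th and 991st in the same comparisons. Both comparisons use the same 3 control libraries.

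**Figure D2:**
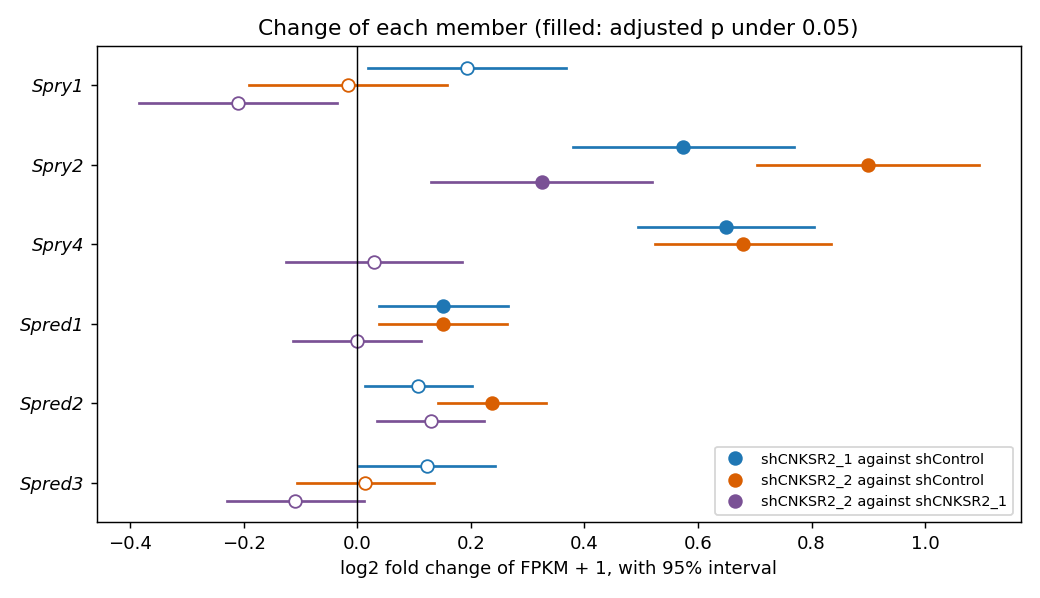
Log2 fold change of FPKM + 1 (horizontal axis) with its 95% interval for each gene in the 3 comparisons, filled where the limma adjusted p was under 0.05. Spry2 and Spry4 show the largest changes from control, and Spry2 is the single filled point between the hairpins, at 0.32.

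The direct comparison asked where the hairpins differed. Spry2 was higher with shCNKSR2_2 than with shCNKSR2_1 by 0.32 ± 0.09 (SE, limma adjusted p = 0.0251), the highest shCNKSR2_1 library at 34.5 FPKM lying below the lowest shCNKSR2_2 library at 37.6 FPKM. It was 1 of 6 members called, against 20.5% of all genes, 9.13% higher and 11.4% lower. Without shCNKSR2_1 replicate 1 the difference was 0.19 (adjusted p = 0.00701), and without shCNKSR2_2 replicate 1, 2 or 3 it no longer passed (adjusted p = 0.0720, 0.0598 and 0.0723). With only those 2 groups in the fit it did not pass either (adjusted p = 0.0569). Spry4 differed by 0.03 (95% interval -0.13 to 0.18, adjusted p = 0.806) and Spred1 by -6e-04 (-0.11 to 0.11, adjusted p = 0.995), so that differences above about 0.18 and 0.11 in favour of shCNKSR2_2 lay outside the intervals. Spred2 was 0.13 higher with shCNKSR2_2 (0.03 to 0.22, adjusted p = 0.0557), with groups that did not overlap, as in 37.9% of all genes. Spry1 was lower by 0.21 on the log2 scale (-0.38 to -0.04, adjusted p = 0.0863) and the difference of Spred3 was -0.11 (-0.23 to 0.01, adjusted p = 0.183). Without shCNKSR2_1 replicate 2, Spry1 passed at -0.29 (adjusted p = 0.0206) and Spred2 at 0.15 (adjusted p = 0.0413).

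Replicate 1 of shCNKSR2_1 moved with these results. On the log2 scale, it lay at 0.433 of the way from the control mean to replicates 2 and 3 for Spry2, at 0.632 for Spry4, 0.526 for Spred1 and 0.227 for Spred2. For Spry1 and Spred3 it lay beyond the other replicates, at 2.21 and 2.12 of that way. Spry2, Spry4, Spred1 and Spred2 were thus lower in this library than in its fellow replicates, and Spry1 and Spred3 higher. Some gaps to replicate 3 were small, at 17.7 against 17.9 FPKM for Spred1, 1.90 against 1.77 for Spry1 and 5.11 against 4.93 for Spred3. For Spry1 and Spred3 the way itself was short, from 1.23 to 1.37 and from 2.42 to 2.51 on the log2 scale. When replicate 1 was the only shCNKSR2_1 library kept, Spry2 was 0.31 and Spry4 0.47 above control, and Spred1 was 0.09, as values of a single library. Why this library differs was not tested.

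The changes altered the balance between the families. The sum of Sprouty transcripts went from 23.7 ± 0.453 FPKM in controls to 36.6 ± 5.29 and 44.0 ± 0.826 FPKM with the first and the second hairpin. Spred transcripts summed to 34.7 ± 0.648, 38.3 ± 1.40 and 39.3 ± 0.129 FPKM. The Sprouty sum was thus 0.685 ± 0.0145 of the Spred sum in controls, 0.953 ± 0.110 with shCNKSR2_1 and 1.12 ± 0.0220 with shCNKSR2_2. It exceeded the Spred sum in 5 of the 6 hairpin libraries, replicate 1 of shCNKSR2_1 being the exception at 0.827, and in 0 of the 3 controls.

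Spry2 made up most of the Sprouty sum in every group, at 84.9% ± 0.623 in controls and at 84.1% ± 1.47 and 87.5% ± 0.369 with the first and the second hairpin. The ratio of Spry2 to Spry4 was 9.05 ± 0.236 in controls and 9.23 ± 0.172 with shCNKSR2_2, and 7.52 ± 0.222 with shCNKSR2_1. All 3 shCNKSR2_1 libraries, at 7.27, 7.61 and 7.68, lay below the other 6. The order of mean levels was the same in all 3 groups, with Spred3 at 4.84 and 4.41 FPKM and Spry4 at 4.08 and 4.17 FPKM under the first and the second hairpin. The values of these neighbours overlapped, however, within shCNKSR2_1 (3.46 to 4.53 and 4.47 to 5.11 FPKM) and within shCNKSR2_2 (4.08 to 4.28 and 4.18 to 4.55 FPKM), while the other neighbours stayed apart.

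**Figure D3:**
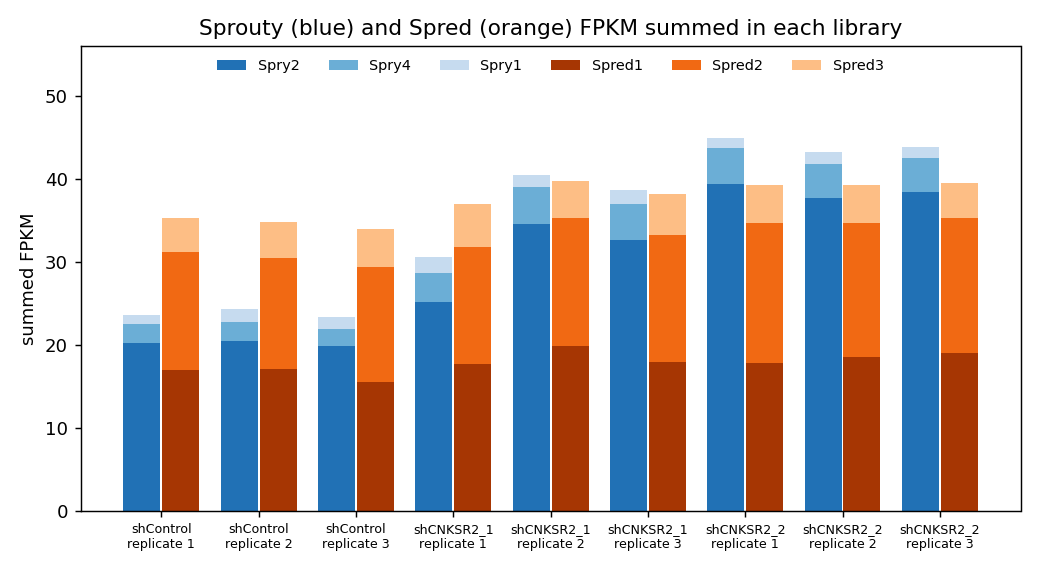
Stacked bars of FPKM (vertical axis from 0) in each of the 9 libraries, Sprouty genes in blue and Spred genes in orange. The blue bar is the shorter in the 3 controls and in shCNKSR2_1 replicate 1, and the taller in the remaining 5 libraries.

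The members were compared with each other and with all other genes by Pearson correlation of log2(FPKM + 1) over the 9 libraries. These libraries form 3 groups, so the coefficients largely restate the group means and carry no p. Spry2 ran with Spred2 (r = 0.949) and with Spry4 (r = 0.948), and Spry4 with Spred1 (r = 0.850). Spry1 ran with Spred3 (r = 0.818), and its r with Spry2 was -0.0650. The genes most like Spry2 were Gclm, a subunit of the glutathione synthesis enzyme (r = 0.998), the adhesion molecule Alcam (0.996) and the reductase Ptgr1 (0.996). The mean of Gclm went from 48.2 FPKM in control cells to 69.4 and 82.1 FPKM. Those most like Spry4 were the pyrophosphate transporter Ank (0.998), the asparagine synthetase Asns (0.998) and Hbegf, a ligand of the EGF receptor (0.995). Impad1, St13 and Rsl1d1 were nearest to Spred1 (0.988, 0.984 and 0.976), and Tnfrsf10b, Rgs20 and Pa2g4 to Spred2 (0.993, 0.988 and 0.986). The best matches were weaker for Spry1, with Tmtc4, Map1lc3a and Ndufb6 (0.922, 0.918 and 0.885), and for Spred3, with Prkcdbp, Lfng and Gpr137 (0.946, 0.933 and 0.907).

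Other brakes on the same pathway were set beside the family. Of 9 measured, 5 rose with each hairpin, while 2 fell with shCNKSR2_1 and 1 with shCNKSR2_2. With the replicate block 1 fell with shCNKSR2_1, and 2 where only the groups compared were in that fit. Of all genes, 13.6% rose and 19.3% fell with shCNKSR2_1, and 20.0% rose and 28.2% fell with shCNKSR2_2. The median log2 changes of these brakes were 0.31 and 0.44. Dusp6, the cytoplasmic phosphatase of ERK, nearly matched Spry2 in level, at 20.8 ± 0.415, 32.1 ± 3.74 and 38.5 ± 0.485 FPKM over the 3 groups (r = 0.994 with Spry2). The nuclear phosphatases Dusp4 and Dusp5 rose by 0.65 and 1.30 and by 1.02 and 1.13, shCNKSR2_1 first, and Errfi1, an inhibitor of the EGF receptor, rose by 0.60 and 0.54 (limma adjusted p from 8.45e-07 to 0.00404 over these 6 changes). Lrig1, a brake that promotes receptor degradation, fell by 0.28 with shCNKSR2_1 (adjusted p = 0.00371).

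Nf1, the gene of the neurofibromin that Spred proteins recruit, did not follow them. Its mean was 7.59 ± 0.470 FPKM in control cells, 6.78 ± 0.209 under the first hairpin and 7.23 ± 0.171 under the second. The log2 difference was -0.14 (limma adjusted p = 0.0368) and -0.06 (adjusted p = 0.306). The first call was lost without shControl replicate 1 or 2, shCNKSR2_1 replicate 1 or 3 and shCNKSR2_2 replicate 2 or 3 (adjusted p from 0.0521 to 0.144). It was also lost with the replicate block, at the same log2 difference (adjusted p = 0.0618, and 0.0728 with only the groups compared). With only the groups compared and no block it was lost too (adjusted p = 0.0734). Scaling mattered as well, the call being lost under median-ratio rescaling (-0.12, limma adjusted p = 0.0818) and quantile normalization (-0.099, adjusted p = 0.159). Lrig1 and Nf1 were named after their values were seen.

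Of 22 further binding partners and modifiers of Sprouty and Spred proteins, Nf1 included, 2 rose and 5 fell with shCNKSR2_1, and 3 rose and 3 fell with shCNKSR2_2. Of all genes 32.8% and 48.2% were called with these hairpins, so calls were no more frequent in this list. The median log2 changes of the list were 0.01 and 0.02. With the GC trend removed 7 and 8 of the list rose. More of all genes rose in that setting too, 2027 and 2842 of the 9874 with a GC value. The main fit had 1405 and 2066 of 10340. The ubiquitin ligase Cblb, a relative of the Sprouty partner c-Cbl, rose by 0.46 and 0.70, and Siah2, a ligase that acts on Spry2, rose by 0.33 and 0.25. Nedd4, another ligase of Spry2, fell by 0.18 and 0.33 and the adaptor Grb2 fell by 0.14 and 0.21. Without shControl replicate 1 the first of the Grb2 calls was lost (-0.12, limma adjusted p = 0.0511).

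Transcripts above the family in the pathway went both ways. Of 11 receptor tyrosine kinases measured, 1 rose and 5 fell with shCNKSR2_1 and 2 rose and 8 fell with shCNKSR2_2. The platelet-derived growth factor receptors Pdgfra and Pdgfrb fell by 0.43 and 0.67 and by 0.35 and 0.70, the collagen receptor Ddr1 fell by 0.55 and 0.49, and Met rose by 0.23 and 0.46. Of 11 growth factor genes, 6 rose and 3 fell with shCNKSR2_1 and 5 rose and 4 fell with shCNKSR2_2. Beside both lists, 13.6% of all genes rose and 19.3% fell with shCNKSR2_1, and 20.0% rose and 28.2% fell with shCNKSR2_2. Hbegf rose by 0.97 and 1.11, and the keratinocyte growth factor Fgf7 fell by 0.59 and 0.95. Fgf2, a classical inducer of Sprouty genes, stood at 3.70 ± 0.316, 5.88 ± 2.47 and 8.37 ± 1.06 FPKM over the 3 groups and rose with shCNKSR2_2 (0.99, limma adjusted p = 0.00397). With shCNKSR2_1 its difference was 0.48 (adjusted p = 0.124), and without replicate 1 of that hairpin it was 0.82 (adjusted p = 8.55e-05). Igf2 fell by 1.38 with shCNKSR2_2, while its value with shCNKSR2_1 was 0.37, a call lost without any 1 control library (limma adjusted p from 0.0566 to 0.0881). Leaving out replicate 1 of shCNKSR2_1 gave 0.20 for Igf2 there, and leaving out replicate 2 gave 0.48.

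Of 16 measured target genes of ERK outside the family, 3 of them the phosphatases above, 11 rose and 1 fell with shCNKSR2_1. With shCNKSR2_2 13 rose and 1 fell. Their median log2 changes were 0.47 and 0.61. Of all genes 13.6% rose with the first hairpin and 20.0% with the second. By the mean absolute change over both hairpins the list was led by Dusp5, Hbegf, Dusp4 and the urokinase receptor Plaur, which rose by 0.75 and 1.12. The list was written with earlier results of these libraries known, so its direction is not independent evidence.

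**Figure D4:**
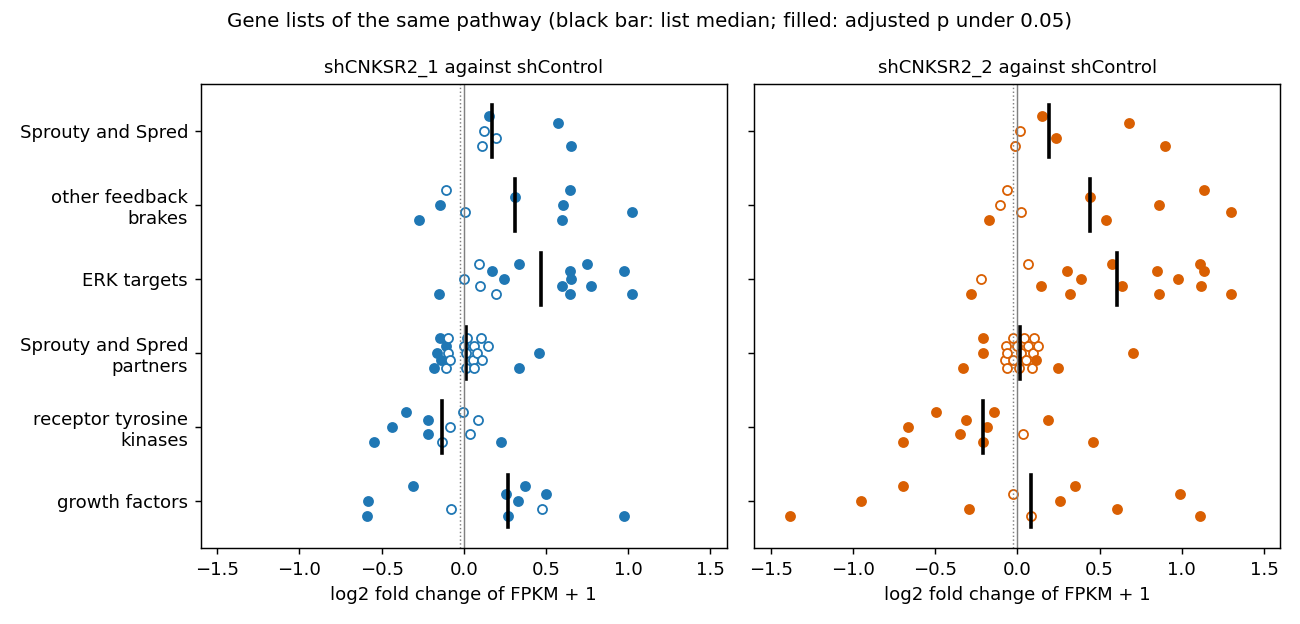
Log2 fold change of FPKM + 1 (horizontal axis) of each measured gene in 6 lists, with shCNKSR2_1 on the left and shCNKSR2_2 on the right, filled where the limma adjusted p was under 0.05. Black bars are list medians, 0.17 and 0.19 for Sprouty and Spred genes, and the dotted line is the median of all genes.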

How the data were processed

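RNA of 9 cultures was extracted with the Qiagen miRNeasy kit and made into libraries with the TruSeq Stranded mRNA kit, per the labels' protocols. The deposited values are FPKM per gene symbol and library. Processing notes of the submitters name STAR (given as 25.1b), Cufflinks 2.2.1 and build mm9. The role of each program, the annotation and the use of strand are not given in the sources used here. The lowest value in the table was 1.00 FPKM. Depth is unknown, so no counting interval is given.

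Values were taken to log2(FPKM + 1) and fitted with limma 3.58.1 under R 4.3.3 (lmFit, eBayes with trend=TRUE) as 3 group means over all 9 libraries, leaving 6 degrees of freedom. Two-sided p was adjusted by Benjamini-Hochberg over 10340 genes within a comparison, and calls were made under 0.05. The procedure was tested on simulated data. No filter was added.

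The members, the lists and the settings were chosen with earlier results of these data known. From each list the text names up to 4 called genes by the mean of their absolute changes with both hairpins. The fibroblast markers are an exception, named after their values were seen. For each member the text names the 3 genes of highest correlation, predicted genes aside. Alternatives tried were a pseudocount of 0.1 or 0.01, genes of at least 5 FPKM on average, a fit with no variance trend, median-ratio and quantile scaling, replicate number as a block, only the groups compared, and leaving out each library. Subtracting a loess trend on GC content of transcripts (GENCODE vM21) and leaving out shCNKSR2_1 replicates 2 and 3 were added after seeing the data, as was the block with only the groups compared. For libraries of shControl and shCNKSR2_1 with the same replicate number, deviations from the group means correlated at r from 0.120 to 0.428 over the 3 pairs. Different numbers gave -0.275 to 0.121, so the ranges met, and whether the numbers pair these groups is not settled. The labels do not state a pairing. The main fit has no replicate term, and the block was run as an alternative. For shControl with shCNKSR2_2 the same numbers gave -0.319 to 0.189 and different numbers -0.325 to 0.445. Between the hairpins the same numbers gave -0.162 to 0.138 and different numbers -0.312 to 0.393. Promoter windows were found in RefSeq (GRCm38.p6) for 5 of the 6 genes.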

Additional observations from a re-analysis of the deposited data

Results flagged for a closer look

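The effects of the hairpins on Spry2 differed by the direct test. Its log2 fold change was 0.32 higher with shCNKSR2_2 than with shCNKSR2_1 (limma adjusted p = 0.0251, 0.00689 to 0.0723 over leaving out each library). All 3 shCNKSR2_2 libraries were above all 3 shCNKSR2_1 libraries. Of all genes 20.5% were called in this comparison, and in 37.9% the groups did not overlap. The call was lost without any 1 shCNKSR2_2 library and with only the hairpin groups in the fit (limma adjusted p = 0.0569).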

How the results depend on the processing

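Spry2 and Spry4 kept their rise and their call with both hairpins under every alternative run for them, Spry2 between 0.31 and 0.71 with shCNKSR2_1 and between 0.88 and 0.93 with shCNKSR2_2, and Spry4 between 0.47 and 0.86 and between 0.66 and 0.90. Spred2 kept its call with shCNKSR2_2 under every alternative (0.21 to 0.28). Of 339 alternative values of the 6 genes, 293 kept direction and side of the threshold, 16 lost the call, 17 gained one and 13 changed sign, and none of those that changed sign was called in either setting. A minimum mean of 5 FPKM left Spry1, Spry4 and Spred3 without a value.

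For shCNKSR2_1 against shControl, 1405 of all genes were called higher in the main fit and 1661 under quantile normalization. Median-ratio rescaling gave 1794, and removal of the GC trend 2027 of the 9874 genes with a GC value. In either direction these settings gave 3396, 3276, 3358 and 3932. Between shControl and shCNKSR2_1, 6 members were called under quantile normalization (Spry1 0.23, Spred2 0.13, Spred3 0.18) and 5 with the GC trend removed (Spred2 0.13, Spred3 0.14). Spred2 also gained a call under median-ratio rescaling (0.13). Spred1 lost its call with only those groups in the fit (0.15, adjusted p = 0.0731) and without shCNKSR2_1 replicates 2 and 3 (log2 change 0.0949, adjusted p = 0.329), where 1860 genes were called in place of 3396. In that fit the single shCNKSR2_1 library is assumed to vary like those of the other groups, which alone supply the spread. For shCNKSR2_2 against shControl, Spry1 changed sign under median-ratio rescaling (4e-04), quantile normalization (0.0698) and removal of the GC trend (0.0183). Between the hairpins, 2 members were called under median-ratio rescaling, quantile normalization and removal of the GC trend (Spred2 0.13, 0.13 and 0.15). Of all genes 2127, 2137 and 2793 were called in these settings, against 2121 in the main fit. With only the hairpin groups in the fit 0 members and 1653 genes were called (Spry2 0.32, limma adjusted p = 0.0569). There 2 members higher and 1 lower passed at an unadjusted p under 0.05. The share of all genes was not taken for it, so these counts are not read as a result about the family. Spred1 was 0.0021 under median-ratio rescaling. Without shCNKSR2_1 replicates 2 and 3, the differences between the hairpins rest on a single shCNKSR2_1 library. They were -0.32 for Spry1, 0.59 for Spry2, 0.21 for Spry4, 0.0564 for Spred1, 0.20 for Spred2 and -0.18 for Spred3. Fgf2 against shControl was -0.21 in that fit. The cause was not tested.

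Leaving out each library in turn, the ranges with shCNKSR2_1 were 0.14 to 0.27 for Spry1, 0.10 to 0.18 for Spred1, 0.084 to 0.15 for Spred2 and 0.0898 to 0.17 for Spred3. With shCNKSR2_2 they were -0.0729 to 0.0314 for Spry1, 0.11 to 0.18 for Spred1 and -0.0146 to 0.0493 for Spred3. Between the hairpins they were -0.29 to -0.15 for Spry1, 0.19 to 0.41 for Spry2, -0.0613 to 0.0938 for Spry4, -0.0291 to 0.0474 for Spred1 and 0.0919 to 0.15 for Spred2, with 0 to 3 members and 1208 to 2333 genes called. Members called numbered 2 to 4 with shCNKSR2_1 and 3 to 4 with shCNKSR2_2, beside 2504 to 3894 and 4075 to 5355 of all genes.

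With the replicate block 3, 4 and 1 members and 3205, 4827 and 1944 genes were called, and no member changed its call, while that of Nf1 with shCNKSR2_1 was lost (-0.14, adjusted p = 0.0618). With the replicate block and only shControl and shCNKSR2_1 in the fit, 3 members and 3474 genes were called and no member changed its call. The depth is unknown, so no counting error can be given.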
